A study of Arabidopsis thaliana with 39 samples.

Results

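The siRNAs described here lie on the nptII transgene of T-DNA line SALK_059379 and on the stretch that follows its stop codon. nptII encodes neomycin phosphotransferase II, the kanamycin resistance marker of plasmid pROK2. A small RNA read was counted when its midpoint lay at 8868-10046 of the plasmid and its sequence equalled the plasmid sequence at every base. This gave 4858 reads, of 21957 exact-match reads on all of pROK2 and of 25606 reads listed in the table with mismatches included. The 4858 reads stood for 1086 distinct combinations of start, end and strand. Of them, 4109 lay in the coding region at 9252-10046 and 749 in the 3′ flank at 8868-9251.

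The plants were Arabidopsis thaliana of line SALK_059379, grown in soil at 21 °C with 16 h of light per day and given no other treatment in the labels. The methods state a different temperature and day length, and which applied to these plants was not settled. Leaf tissue of whole rosettes was taken from segregating plants that had been pooled, so that plants with and without a given insertion may have contributed. There was 1 small RNA library and 1 RNA-seq library of this line. The methods state that the small RNA was sequenced in duplicate, but the table does not separate the runs, and no test between conditions was possible. Intervals are exact 95% intervals (Poisson for counts and densities, Clopper-Pearson for shares and ratios) and cover counting error at most. Reads without molecular identifiers are not independent molecules, so intervals on repeated reads may be too narrow even for that. No library without the transgene was analysed, and the leaf origin could not be checked against leaf markers, because the table lists only reads on the plasmid.

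Plants cut double-stranded RNA into siRNAs with several Dicer-like enzymes. DCL4 makes products of 21 nt and DCL2 products of 22 nt, both of which act mainly on transcripts, whereas DCL3 makes products of 24 nt that guide DNA methylation. Each cut leaves a duplex whose strands overhang by 2 nt at their 3′ ends, and Argonaute proteins then keep one strand, AGO1 favouring a 5′ U and AGO4 a 5′ A.

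The nptII coding region runs on the minus strand of pROK2, spans 795 bp and encodes 264 amino acids. Reads on the plus strand are therefore antisense to nptII and reads on the minus strand are sense. The 3′ flank spans 384 bp and reaches from the stop codon to the second copy of the nopaline synthase terminator (NOSt) at 8607-8867. Both stretches were rich in G and C, with 59.5% in the coding region and 60.2% in the flank. Distances are given from base 9252, the edge of the stop codon, and are positive into the coding region and negative into the flank. No sequence of the 4858 reads occurred at a second place on pROK2, on the SAIL_232 plasmid pCSA110 or in the TAIR10.1 genome. Each read thus had 1 place on these reference sequences. For the genome this was largely fixed beforehand, because the authors had removed off-target reads by aligning to TAIR10. The paper reports several insertions with repeated T-DNA copies in this line, and reads of different copies were not told apart.

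siRNAs did not stop at the stop codon. The coding region held 5169 reads per kb (95% interval 5012 to 5329) and the 3′ flank 1951 (1813 to 2095), a ratio of 2.65 (2.45 to 2.87). Every one of the 384 flank bases was covered by at least 9 reads of 21 to 24 nt, and every coding base by at least 3. The median depth per base was 39 in the coding region and 30 in the flank, much closer than the densities, and both strands were covered at 91.3% and 95.6% of the bases. With identical reads counted once, the coding region held 931 and the flank 901 distinct reads per kb, a ratio of 1.03 (0.908 to 1.18), which leaves no difference beyond counting error. The 2 stretches thus differed in how often reads were repeated, with 5.55 reads per distinct read in the coding region and 2.16 in the flank.

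Other elements of pROK2 held between 2.07 and 2.85 reads per distinct read, so the flank lay within their range and the coding region above it. The flank density of 1951 reads per kb also lay close to that of the second NOSt (1885, interval 1722 to 2059), whose interval overlapped that of the flank. Both copies of NOSt have the same sequence, so that the value of each depends on how the table divided reads that match both, 433 on the first and 492 on the second. The stretch that holds the nopaline synthase promoter (NOSp), on the other side of nptII, carried 2696 reads per kb (2529 to 2872), above the flank and below the coding region. The vector backbone carried 1107 (1085 to 1129). How many copies of each element the line carries was not taken into account in these densities.

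**Figure D1:**
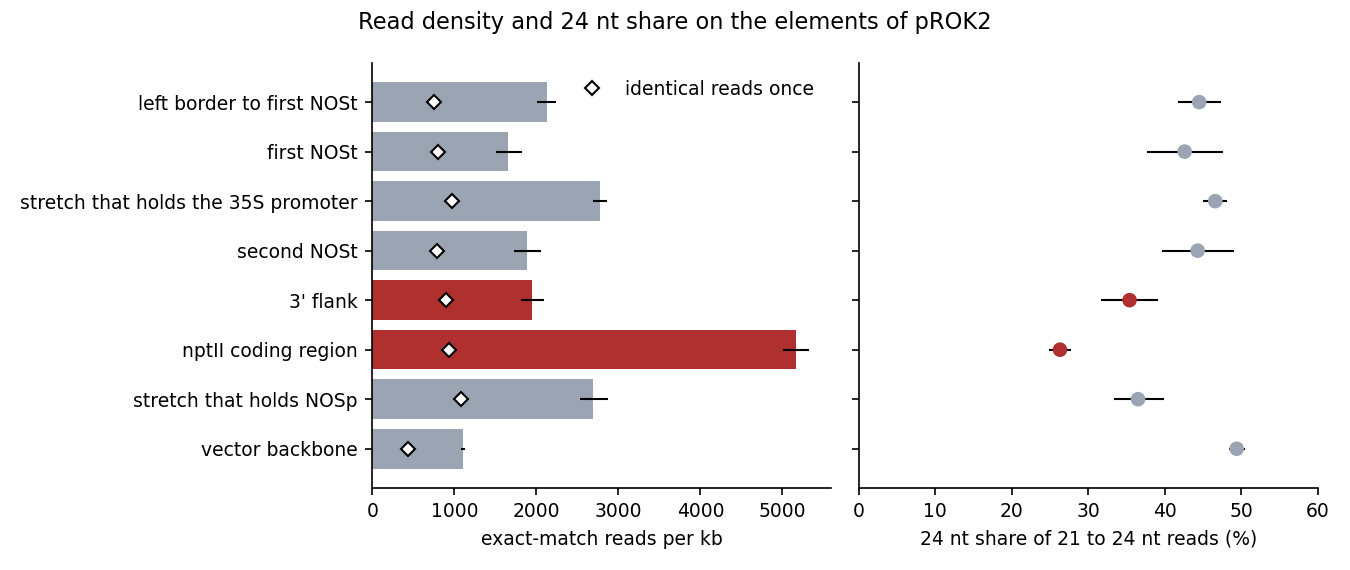
Left, exact-match small RNA reads per kb on each element of pROK2 (bars, with Poisson 95% intervals) and the same with identical reads counted once (diamonds). Right, the share of 24 nt reads among 21 to 24 nt reads with its 95% interval. The nptII coding region stands out at 5169 reads per kb and at a 24 nt share of 26.3%, whereas its 931 distinct reads per kb lie near the 901 of the 3′ flank. With identical reads counted once (not drawn), its 24 nt share was 29.4%, beside 31.1% on the stretch that holds NOSp.

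The excess of the coding region over the flank was larger for 21 and 22 nt reads than for 24 nt reads. The ratio of densities was 3.13 (2.68 to 3.69) for 21 nt reads and 3.43 (2.96 to 3.98) for 22 nt reads. For 24 nt reads it was 2.08 (1.80 to 2.40), below both, for 23 nt reads 2.28 (1.66 to 3.20) and for reads of 20 nt or shorter 1.96 (1.32 to 3.01). With identical reads counted once the ratios for 21, 22 and 24 nt were 0.878 (0.660 to 1.18), 1.15 (0.883 to 1.50) and 0.876 (0.680 to 1.13), with overlapping intervals. Reads of 25 nt or longer, 116 in all, were about as dense in the flank, with a ratio of 0.851 (0.575 to 1.27).

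Of the 4858 reads, 4585 were 21 to 24 nt long, in a total range of 16 to 45 nt. The 22 nt class was the largest in the coding region, with 1490 reads beside 1168 at 21 nt, 222 at 23 nt and 1029 at 24 nt. In the flank the 24 nt class led, with 239 reads beside 180 at 21 nt, 210 at 22 nt and 47 at 23 nt. The 24 nt share of 21 to 24 nt reads was 26.3% (24.9 to 27.7) in the coding region and 35.4% (31.7 to 39.1) in the flank, and these intervals did not overlap. The 21 and 22 nt classes together made up 68.0% (66.5 to 69.5) and 57.7% (53.9 to 61.4). On the other elements the 24 nt share ran from 36.5% on the NOSp stretch to 49.4% on the vector backbone. The flank interval overlapped that of the NOSp stretch (33.3 to 39.9), and the coding region lay below every other element. With identical reads counted once, the 24 nt share was 29.4% (25.8 to 33.2) in the coding region and 33.2% (27.8 to 38.9) in the flank, and the intervals overlapped.

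In steps of 50 bp, the reads formed separate peaks rather than a gradient. Density ranged over 24 steps from 480 to 25920 reads of 21 to 24 nt per kb with a median of 1870. The highest step lay at distances 650 to 699, inside the first part of the gene, and held 1296 reads. A second group of peaks lay at 250 to 299 with 405 reads, at 100 to 149 with 347 reads and at 0 to 49 with 427 reads, directly before the stop codon. The next step, from -50 to -1, fell to 51 reads (interval 38.0 to 67.1).

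Within the flank, the level did not decline steadily with distance from the gene. The 3 flank steps nearest to the stop codon held 51, 62 and 58 reads. The step at -200 to -151 then rose to 241 reads (212 to 273), the highest of the flank, followed by 83, 98 and 56 reads. The last 34 bp before the second NOSt held 27 reads. The peak at -200 to -151 held the 21 nt class with 62, the 22 nt class with 86 and the 24 nt class with 81 reads, so that all 3 main classes took part in it.

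The 21, 22 and 24 nt classes were all highest in the step at 650 to 699, but their next peaks differed. The second highest step was 300 to 349 for 21 nt (116 reads), 250 to 299 for 22 nt (238) and 0 to 49 for 24 nt (195). Across the 24 steps, the densities of 21 and 22 nt reads had a Pearson r of 0.933 (Spearman rho 0.888). Those of 21 and 24 nt reads had 0.790 (0.747) and those of 22 and 24 nt reads 0.747 (0.697). Without the highest step the r values were 0.696, 0.601 and 0.416, and the rho values, which changed less, were 0.872, 0.712 and 0.655. These are descriptions across steps of 1 library, which share its depth and base composition. The 24 nt share by step ran from 10.4% (7.58 to 13.8) at 250 to 299 to 58.1% (42.1 to 73.0) at 50 to 99.

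**Figure D2:**
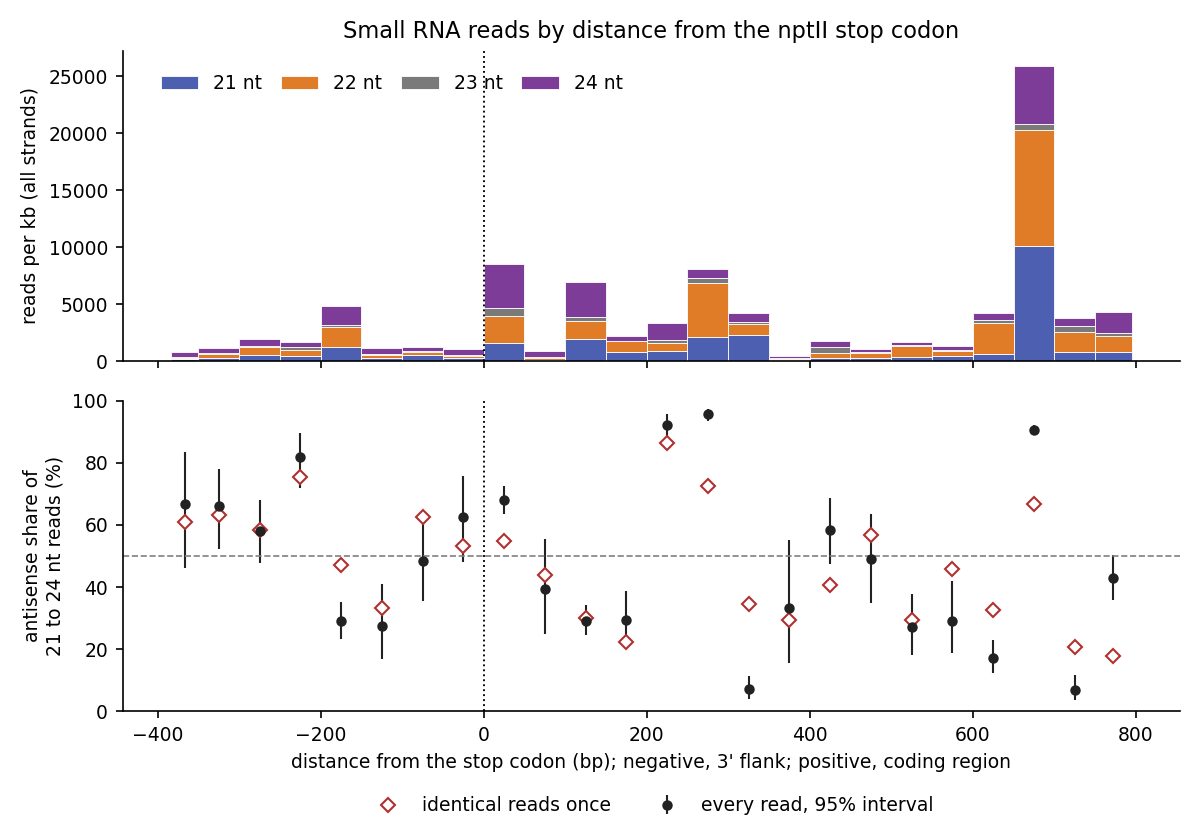
Top, reads per kb in 50 bp steps along the 3′ flank (negative distances) and the nptII coding region (positive distances), stacked by length. Bottom, the antisense share of 21 to 24 nt reads in each step with its 95% interval (circles) and with identical reads counted once (diamonds), and a dashed line at 50%. The step at 650 to 699 holds 1296 reads. Antisense shares of neighbouring steps change from 95.8% to 7.04% (250 to 349) and from 90.6% to 6.95% (650 to 749).

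Most reads that crossed the edge of the stop codon were 24 nt long. Across its edge, between bases 9251 and 9252, ran 314 reads, 294 of them of 21 to 24 nt, in 45 distinct forms. Of these, 187 were 24 nt long, 63.6% (57.8 to 69.1), compared with 17 of 21 nt, 69 of 22 nt and 21 of 23 nt. Copies of the antisense read at 9249-9272 made up 63 of the 187, and copies of that at 9250-9273 made up 54. By midpoint, the 24 nt share was 45.7% in the step at 0 to 49, beside 44.7% at 100 to 149 and 58.1% at 50 to 99. The 294 reads came from both strands, 156 antisense and 138 sense. By contrast, 38 reads of 21 to 24 nt ran across the edge of the second NOSt, 37 of them antisense, and 27 ran across the start codon edge. The start codon edge also had a high 24 nt share, 59.3% (38.8 to 77.6), on few reads.

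A cluster of antisense reads began within 5 bp of the edge of the stop codon and ran into the coding region. It held 263 reads of 21 to 24 nt from 9 neighbouring 5′ ends, of which 141 were 24 nt, 53.6% (47.4 to 59.8). Those that began before the edge are among the reads counted across it above. The highest depth in the flank, 295 reads, was at base 9251, the last base before the stop codon edge. The drop from 427 reads to 51 in the next step therefore counts midpoints, and reads that cross the edge carry the depth into the flank.

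**Figure D3:**
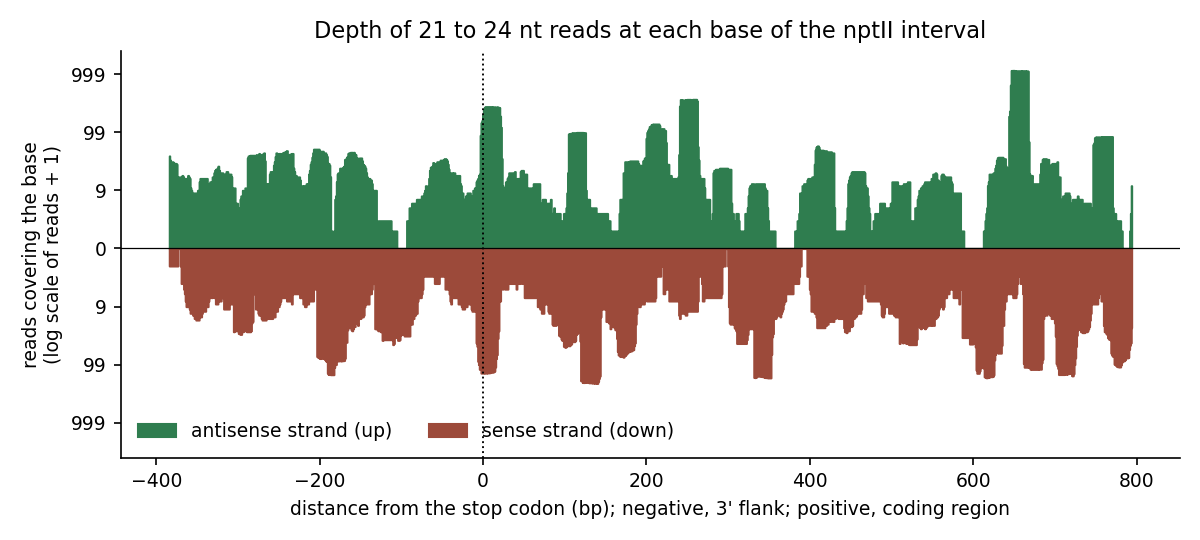
Number of 21 to 24 nt reads covering each base of the nptII interval, antisense upward and sense downward, on a log scale of reads plus 1, against the distance from the stop codon. The highest antisense peak belongs to the cluster that ends at base 9919 (distance 667), and a peak on both strands spans the stop codon at distance 0, where the flank depth reaches 295.

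Strand bias was strong locally and changed direction along the gene. In the coding region as a whole 62.1% (60.6 to 63.7) of the 21 to 24 nt reads were antisense, 2429 against 1480. The antisense share was 69.6% (66.9 to 72.2) for 21 nt, 61.1% (58.5 to 63.6) for 22 nt and 55.9% (52.8 to 58.9) for 24 nt reads. In the flank it was 48.5% (44.7 to 52.4) for all 4 lengths, and the interval of each main class spanned 50%. Counting identical reads once turned the direction in the coding region, to 42.6% antisense (38.6 to 46.6), and moved the flank to 56.8% (51.0 to 62.6). Leaving out the 10 most frequent 5′ ends of each stretch gave 43.0% (40.8 to 45.1) and 61.0% (56.5 to 65.4). The antisense excess of the coding region therefore rested on repeated reads at a few 5′ ends.

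Of the 24 steps, 6 had an antisense interval wholly above 50%, 9 wholly below and 9 spanned it. Neighbouring steps could be opposite. The step at 250 to 299 was 95.8% antisense (388 of 405 reads) and the next, at 300 to 349, was 7.04% (15 of 213). The top step at 650 to 699 was 90.6% antisense and the next, at 700 to 749, 6.95% (3.75 to 11.6). In the flank, the step at -250 to -201 was 81.9% antisense (72.0 to 89.5), whereas the peak at -200 to -151 was 29.0% (23.4 to 35.2). With identical reads counted once, the steps from 250 to 349 were 72.7% and 34.4% antisense, those from 650 to 749 were 66.7% and 20.8%, and the flank pair was 75.6% and 47.0%. The contrasts were thus smaller among distinct reads, and the flank peak lay near 50%.

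A small number of 5′ ends held much of the signal. Reads began at 740 of 2358 possible combinations of position and strand, 308 of them with a single read. The 10 most frequent held 1863 reads, 38.3% (37.0 to 39.7), all with their midpoints in the coding region, and 24 of the 740 held 50%. Within the coding region the top 10 held 45.3% (43.8 to 46.9), and within the flank its own top 10 held 26.6% (23.4 to 29.9).

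The leading hot spot was a group of antisense reads of all 3 lengths with a common 3′ end. The most frequent 5′ end was 9899, in codon 50 of nptII, with 507 reads (464 to 553), of which 473 were 21 nt long. The second was 9898 with 412 reads (373 to 454), 405 of them 22 nt. The fourth was 9896, in codon 51, with 163 reads (139 to 190), 152 of them 24 nt. The main read of each ended at base 9919, in codon 43, so that the forms differed by bases added at the 5′ end. In all, 1055 reads from 9 different 5′ ends stopped at 9919, which was 21.7% of the 4858 reads. These 3 forms were also the most frequent 21, 22 and 24 nt reads of the whole interval, with 35.1%, 23.8% and 12.0% of their classes.

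The remaining hot spots were each dominated by 1 length. At 9493, in codon 185, 241 antisense reads began, 200 of them 22 nt, and at the adjacent 9494 began 84, of which 73 were 21 nt. Their main reads ended together at 9514. The sense reads from 9395 (codon 218) numbered 142, of which 125 were 24 nt. The sense reads from 9604 (codon 148) numbered 103, of which 102 were 21 nt. Antisense reads from 9357 (codon 230) were 73, with 72 of 21 nt. The sense reads from 9877 (codon 57) were 67, with 63 of 22 nt. The one that lay outside the coding region was 9249, 3 bases into the flank, where 71 antisense reads began that crossed the stop codon, 63 of them 24 nt.

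**Figure D4:**
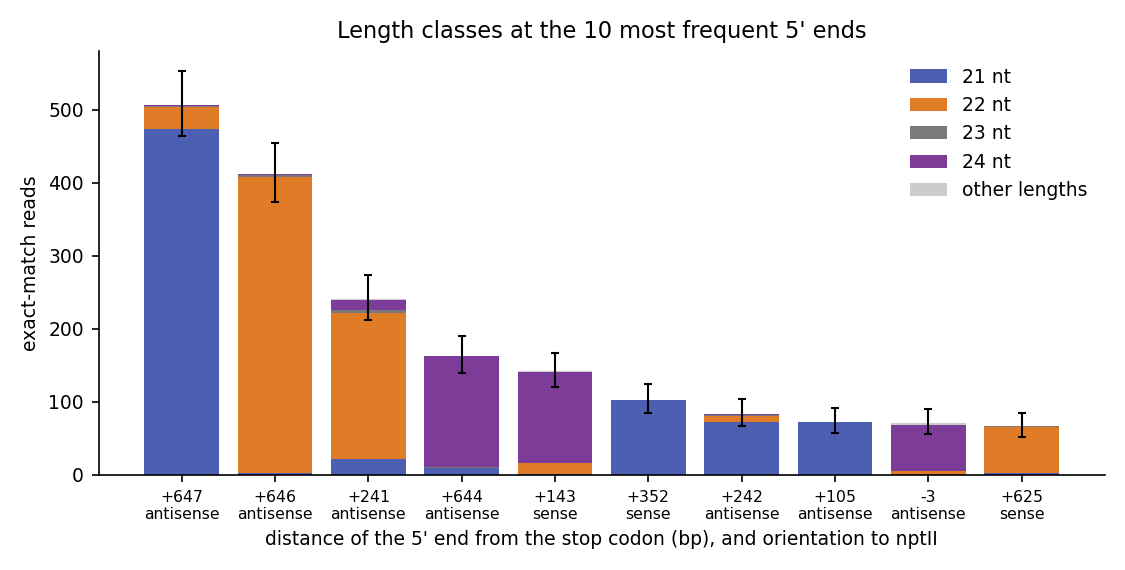
Exact-match reads at the 10 most frequent 5′ ends of the nptII interval, by length, with Poisson 95% intervals on the totals. Labels give the distance of the 5′ end from the stop codon and its orientation to nptII. The bars at +647, +646 and +644 hold 507, 412 and 163 reads that are mostly 21, 22 and 24 nt long.

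The flank had weaker hot spots of the same kind. Its most frequent 5′ end was 9069 with 38 sense reads (26.9 to 52.2), 37 of them 21 nt. The next, 9083, had 37 sense reads (26.1 to 51.0), 31 of them 22 nt, and 9085 had 17, of which 16 were 24 nt. The 22 nt read from 9083 and the 24 nt read from 9085 ended at the same base, 9062. The main antisense 5′ end was 8964 with 26 reads, 16 of them 22 nt, and the fifth was 9143 with 17 sense reads, 15 of them 24 nt. The 3 sense 5′ ends at 9069, 9083 and 9085 fell within 17 bp, and their main reads belonged to the flank peak at -200 to -151.

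Among the length variants, common 3′ ends were more frequent than common 5′ ends. Of the 217 distinct 21 nt reads, 104 had a 22 nt read on the same strand with the same 3′ end and 70 had one with the same 5′ end. Of the 280 distinct 22 nt reads, 113 shared the 3′ end of a 24 nt read and 62 the 5′ end. On the rest of pROK2 the same order held, with 484 shared 3′ ends and 268 shared 5′ ends among 1210 distinct 21 nt reads set against 22 nt reads. Reads of the nptII interval used fewer 3′ ends, 610, than 5′ ends, 740, and the top 10 of each held 44.2% (42.8 to 45.6) and 38.3% (37.0 to 39.7).

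The hot spots were almost without duplex partners. The partner of a read was defined as the read of the same length on the other strand that would pair with it to leave 2 nt overhanging at each 3′ end. The partner of the 21 nt read from 9899 (473 reads) was found 0 times, which allows up to 3 reads. The same was true of the main reads of 8 further hot spots among the top 10, and of all 5 in the flank. The exception was the 24 nt read at the stop codon, 9249-9272, with 63 reads and a partner at 9247-9270 with 5 reads. The opposite strand was not empty at the hot spots, since 114 reads overlapped the leading 21 nt read there in other positions.

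The pairs with the most reads lay at the stop codon, where both strands were deeply covered. Pairs at other overhangs were not counted for this site alone. All 6 pairs with the most reads on the weaker strand lay between 9247 and 9275. The one with the most reads on its weaker strand was a 22 nt pair with 10 antisense reads at 9252-9273 and 13 sense reads at 9250-9271. The 24 nt reads at 9250-9273 numbered 54 and their partners 5. Elsewhere pairs rested on few reads, and 16 of the 25 pairs of 24 nt had a single read on the weaker strand.

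By length, the 2 nt overhang gave the highest number of distinct pairs for 24 nt reads. There were 25 distinct 24 nt pairs with that overhang, more than at any of 20 other offsets from -10 to 10 nt (6 to 21, median 14). In the coding region alone it gave 17 (others 3 to 16), and in the flank 8 (others 1 to 9), where 1 offset was higher and 2 were equal. For 22 nt there were 19 pairs (others 11 to 26, 4 of them higher), and for 21 nt there were 10 (others 3 to 19, 5 of them higher). The pairs took in 18.6% (16.5 to 20.9) of the 24 nt reads, 9.24% (7.90 to 10.7) of the 22 nt reads and 4.15% (3.15 to 5.36) of the 21 nt reads. By reads rather than distinct pairs, overhangs of 4 nt and 5 nt took in more 24 nt reads, 21.7% (19.4 to 24.1) and 18.9% (16.8 to 21.2). For 22 nt reads 8 of the 20 other offsets took in more, up to 28.1%. For 21 nt reads 13 did, up to 43.1%, and the median of the other offsets was 5.68%. On the rest of pROK2 the 2 nt overhang gave the most distinct pairs for both 22 nt (88, others 53 to 75) and 24 nt (122, others 78 to 117), and for 21 nt it gave 42 (others 28 to 49). By reads, that overhang took in 12.6% of the 24 nt reads there, beside a median of 12.5% over the other offsets, 10 of which were higher. For 22 nt it took in 11.6%, and 1 offset was higher.

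**Figure D5:**
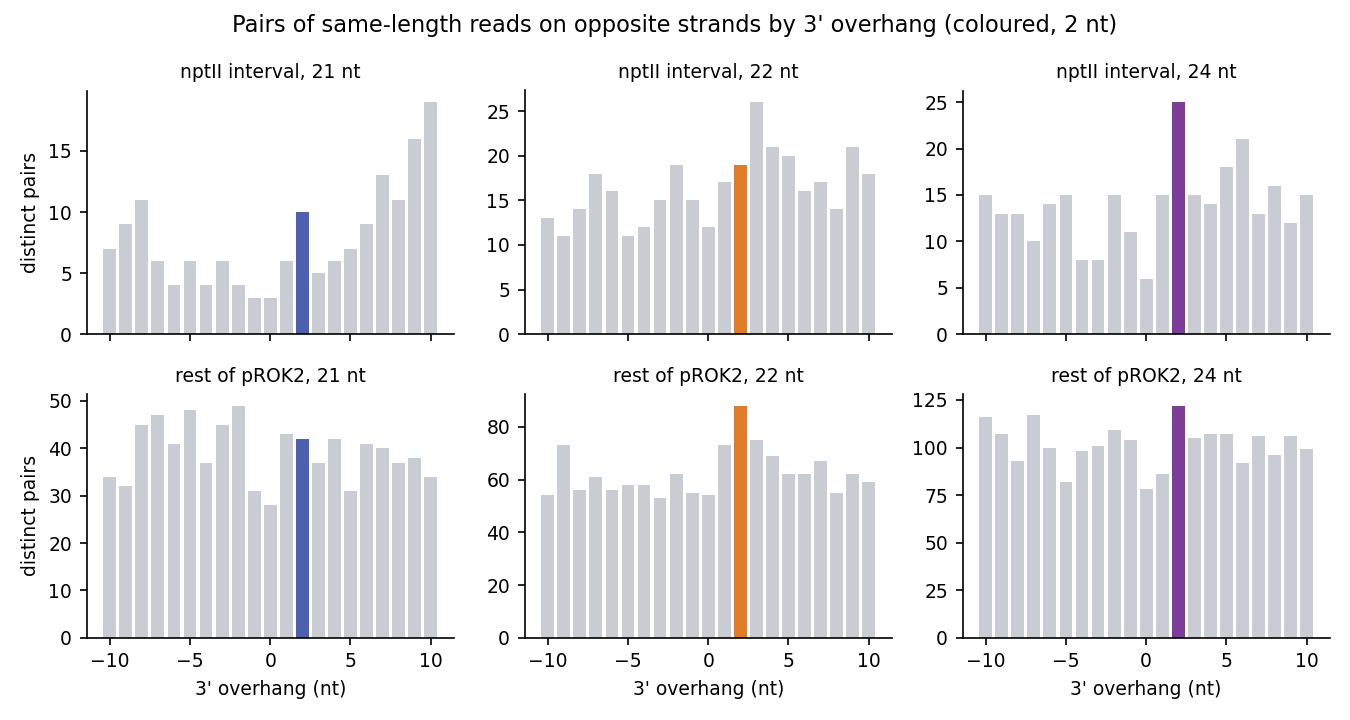
Distinct pairs of same-length reads on opposite strands at each 3′ overhang from -10 to 10 nt, for the nptII interval (top) and the rest of pROK2 (bottom), with the 2 nt overhang of a Dicer product coloured. In the nptII interval only the 24 nt panel has its highest bar there, with 25 pairs.

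The bases at the read ends differed between the nptII interval and the rest of pROK2. Among 21 nt reads, 60.9% (58.2 to 63.5) began with U, the base favoured by AGO1, compared with 30.9% (29.1 to 32.6) on the rest of pROK2. Without the most frequent 5′ end this fell to 39.8% (36.5 to 43.1), and with identical reads counted once 65 of 217 began with U (interval 23.9% to 36.5%), beside 30.5% (27.9 to 33.2) of distinct reads elsewhere. U was rare inside the 21 nt reads, at 13.1% of their inner bases, and 21.0% with identical reads counted once.

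The 24 nt reads of the interval began less often with A, the base that led elsewhere. A stood at 11.8% (10.1 to 13.7) of their 5′ ends, against 40.3% (39.2 to 41.4) on the rest of pROK2, although its share of the inner bases was alike, 26.2% and 27.1%. With identical reads counted once the shares were 22% (17.2 to 27.4) and 35% (32.9 to 37.2), which still did not overlap. A then made up 22.3% of the inner bases in the interval and 25.6% elsewhere. Among distinct reads of the interval, A was thus about as frequent at the 5′ end as inside. U began 41.6% (38.9 to 44.4) of the 24 nt reads and C 30.7% (28.1 to 33.3). Among distinct 24 nt reads C led with 34.8% (29.2 to 40.8).

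At the 3′ end, C predominated in every class. It closed 81.4% (79.2 to 83.4) of the 21 nt, 70.2% (68.0 to 72.4) of the 22 nt and 67.7% (65.0 to 70.2) of the 24 nt reads, while it made up 24.5% to 26.1% of their inner bases. On the rest of pROK2, C was also the most frequent 3′ base, but at lower shares of 54.6%, 54.0% and 56.4%. There C was also rarer inside the reads, at 20.2% to 21.8% of the inner bases. Among distinct reads the shares were 56.7% (49.8 to 63.4), 55.0% (49.0 to 60.9) and 58.6% (52.5 to 64.5) in the interval and 46.9% (44.1 to 49.8), 47.6% (45.0 to 50.1) and 48.5% (46.2 to 50.7) elsewhere. C made up 25.1% to 25.7% of the inner bases of distinct reads in the interval and 21.6% to 22.5% elsewhere. The difference in 3′ C among distinct reads was therefore not separated from base composition. Of the 10 largest groups of reads with a common 3′ end, 8 ended in C.

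RNA-seq gave few reads to set beside the siRNAs. Its table lists aligned pieces of reads, 125 on all of pROK2, of which 6 lay in the coding region (exact Poisson interval 2.20 to 13.1) and 3 in the flank (0.619 to 8.77). Pieces of only 10 bases made up 3 of the 6, 1 of the 3 and 56 of the 125. Of the 5 pieces of at least 30 bases that touched the interval, 4 were listed on the plus strand and 1 on the minus strand. Over all of pROK2, 41 of 43 such pieces were listed on the plus strand, so this is not particular to nptII. Of the 5 pieces, 2, at 9222-9350 and 9222-9351, ran from the flank across the stop codon. Which strand of the RNA the listed strand stands for was not tested, so the pieces were not called sense or antisense.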

How the data were processed

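After adapter trimming, the authors aligned reads to the plasmids (Bowtie2, Geneious aligner), and aligned the hits to TAIR10 to remove off-target reads. No normalization was applied. The submitters' processing notes name Bowtie2 2.3.0, Bowtie 0.12.7 and FastQC. For a single table the aligner was not given in the sources used here. The deposited tables list single reads by sequence, strand, start and end, so counts were made here by counting entries. The total sequenced is also not given, and nothing was scaled to library size. Of 39 samples, 1 small RNA and 1 RNA-seq library of SALK_059379 were analysed, and the SAIL_232 small RNA table was searched for the read sequences. No read sequence occurred in it. This was largely fixed beforehand, because it holds only reads on pCSA110, where none of the read sequences occurred.

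Positions count from 1 on pROK2 (12883 bp). The strand column was used, since all reads are written in plus-strand orientation. The 10 most frequent 5′ ends, the 5 most frequent of the flank and the leading read of each main length class were named by rule. Members and lists were chosen with earlier results of these data known. Counting functions were tested on simulated reads. Alternatives were other rules of membership, identical reads once, mismatched reads included, shifted boundaries and removal of frequent 5′ ends. Python 3.11.15, NumPy 2.4.6, pandas 2.3.3, SciPy 1.17.1 and Matplotlib 3.10.9 were used.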

Additional observations from a re-analysis of the deposited data

Results flagged for a closer look

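Reads with mismatches were left out of the comparisons above and entered only as an alternative. In the nptII interval 491 of 5349 reads (9.18%) differed from pROK2, although the methods describe mapping without mismatches. On the rest of pROK2 15.6% did. In the interval 477 of the 491 had a single mismatch, which was at the last base of the 3′ end in 195 and at the first base of the 5′ end in 148. Of them 241 were antisense (49.1%, beside 59.0% of the exact reads), and 142 of them (28.9%) lay in the flank. By length, 91 were 21 nt, 109 were 22 nt, 49 were 23 nt and 98 were 24 nt long. The 10 most frequent 5′ ends held 107 of them (21.8%). The origin of the mismatches was not tested.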

How the results depend on the processing

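The ratio of reads per kb, coding region over flank, was 2.65. It was 1.85 for reads overlapping a stretch by 1 base, 1.79 with the boundary 50 bp into the coding region, 2.40 with it 50 bp into the flank, 2.42 with mismatched reads and 1.45 without the 10 most frequent 5′ ends, all above 1, and 1.03 with identical reads once. The 24 nt share of the coding region (26.3%) was 29.4% with identical reads once, 30.2% without its most frequent 5′ end and 32.7% without its top 10, where its interval (30.6 to 34.7) overlapped that of the flank (36.5%, 32.2 to 41.0). The antisense share of the coding region (62.1%) was 56.5% without the most frequent 5′ end and turned to sense with identical reads once (42.6%) or without the top 10 (43.0%). By class it turned for 21 nt reads (38.6% and 39.2%) and 22 nt reads (42.1% and 34.1%), and for 24 nt reads the intervals reached 50% (42.6% and 50.9%). The flank (48.5%) moved to 56.8% and 61.0%. The share with a duplex partner moved for 21 nt reads from 4.15% to 9.22% with identical reads once, 6.40% without the most frequent 5′ end and 9.48% without the top 10, and for 22 nt reads from 9.24% to 13.6% and 15.1% with the first and the last of these. The top 10 share of 5′ ends (38.3%) was 57.7% with ends within 2 nt joined and 36.8% with mismatched reads. Removal of the top 10 for the ratio, for the 24 nt share and for the end bases, and mismatched reads for the top 10 share, were chosen after the data were seen. Of 35 values of these results under alternatives, 14 stayed within the original interval, among them all 4 alternatives of the flank's 24 nt share. No read had a second place on pROK2 or in TAIR10.1, so leaving such reads out changed nothing. For TAIR10.1 this is no independent check, since the authors had already removed off-target reads. No paired analysis was possible because there was 1 library. Depth limits partner counts, since 0 reads allows up to 3.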

Other observations

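Reads cut one after another from a fixed start would share a register of 21 or 24 nt. For the 21 nt reads of the interval, the fullest register, with the starts of sense reads shifted by the 2 nt overhang, held 36.4% (33.9 to 39.1) where an even spread gives 4.76%, but 8.29% (4.99 to 12.8) with identical reads counted once and 8.80% (6.64 to 11.4) without the 10 most frequent 5′ ends. For 24 nt reads it held 14.0% (12.2 to 16.1), 6.23% (3.67 to 9.78) and 12.0% (9.95 to 14.3), where an even spread gives 4.17%. The fullest register is chosen from all of them and lies above an even spread by construction, and no test was made.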
